A study of Arabidopsis thaliana with 8 samples.

Results

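The NAC transcription factors of *Arabidopsis thaliana* were followed in roots of 2 genotypes, wild type WS and *gpa1-2*, which lacks the Gα subunit, before treatment and after 60 min on medium with ATP. A gene was taken as a NAC gene when its deposited protein description held NAC as a whole word in capitals, or ANAC, in both tables, and as a member when it reached 1 FPKM in any condition. FPKM is the number of sequenced fragments scaled to transcript length and to the number of mapped fragments. Of 33544 genes in both tables, 98 had such a description, and 70 of these reached 1 FPKM. The 70 genes are described member by member.

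NAC proteins are a plant-specific family of transcription factors that bind DNA through a conserved N-terminal domain, the NAC domain, and regulate transcription through a variable C-terminal part. Several are induced by drought, salt or abscisic acid and act in stress responses and senescence, and some are held at a membrane and move to the nucleus after cleavage. In roots, other members direct the differentiation of xylem vessels, phloem sieve elements and the root cap. GPA1 is the Gα subunit of the heterotrimeric G protein, and extracellular ATP is a signal that plant cells sense after wounding or mechanical contact.

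The labels give seedlings of 4 days on half-strength MS medium. The paper's methods and its legend to the expression profiling name a greater age, whereas its legend to the real-time qPCR gives 4 days. WS is the wild-type ecotype, *gpa1-2* is the Gα null mutant in that background, and treated seedlings of both genotypes were transferred to ATP medium, whereas the untreated ones were sampled before treatment. Transfer, time and ATP therefore cannot be told apart. The methods give root tips as the tissue, which hold many cell types, so that a change in cell number and a change in RNA per cell cannot be told apart. The labels list 8 samples, 2 replicates in each of 4 conditions. The tables, however, give 1 value per gene and condition, so the spread between replicates is unknown and no test between conditions was possible. The columns carry only a number, and their genotype and treatment rest on the name of each table and on the study's counts of changed genes.

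The recovered depth was 11769859 to 13483652 reads per column. The 8 root markers were at 1 FPKM or more in each column, with summed levels of 120.1 to 232 FPKM. After ATP, 6 of the 8 were higher in WS and 7 in *gpa1-2*. The median difference on the log2(FPKM + 1) scale was 0.22 in WS and 0.42 in *gpa1-2*. In WS 2 of the 8 rose by 1 or more, *WOX5* and *PIN2*, against 3.75% of all genes tested. In *gpa1-2* 1 did, *WOX5*, against 3.6%. *WOX5* was at 2.64, 50.1, 5.29 and 48.1 FPKM and *PIN2* at 40.6, 90.5, 36.3 and 65.0 FPKM, in the order untreated WS, ATP-treated WS, untreated *gpa1-2*, ATP-treated *gpa1-2*. In that order the 7 leaf and shoot markers summed to 15.9, 13.1, 16.2 and 5.73 FPKM, with *RBCS1A* at 4.20, 1.18, 6.29 and 0.693 FPKM, and *CLV3* was at 0 throughout. Only 3 of the 7 reached 1 FPKM, and of these 1 was higher after ATP in WS and 0 in *gpa1-2*. The part of these differences in the values below was not tested. *GPA1* was at 51.9, 46.5, 28.6 and 31.1 FPKM, so its transcript was lower in both columns labelled *gpa1-2* but was still measured there. Below, 4 FPKM values of a gene stand in the same order. A response is the difference of log2(FPKM + 1), ATP-treated minus untreated, and a gene was counted as changed when it reached 1 in size. Intervals are exact 95% intervals of the log2 ratio of reads, without an added 1. They hold the error of counting alone, so they set library against library and say nothing on the spread between plants.

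The NAC transcripts spanned a wide range of levels. In untreated WS the lowest member was at 0.746 FPKM, the median at 8.17 and the highest at 271, while all 20350 genes that reached 1 FPKM had a median of 13.1. In untreated WS, 33 members were at 10 FPKM or more and 10 at 50 FPKM or more. All but 6 members were at 1 FPKM or more in each of the 4 conditions. *ANAC102*, a NAC gene known from low-oxygen germination, had the highest mean level and made up 17.4% of the summed FPKM of the members in untreated WS. The summed level of the 70 members was 1560 FPKM in untreated and 1889 FPKM in ATP-treated WS, and 1620 and 1854 FPKM in untreated and ATP-treated *gpa1-2*. *VNI2* and *ANAC047* held most of that increase, since without them the sums were 1409 and 1447 FPKM in WS and 1413 and 1412 FPKM in *gpa1-2*.

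**Figure D1:**
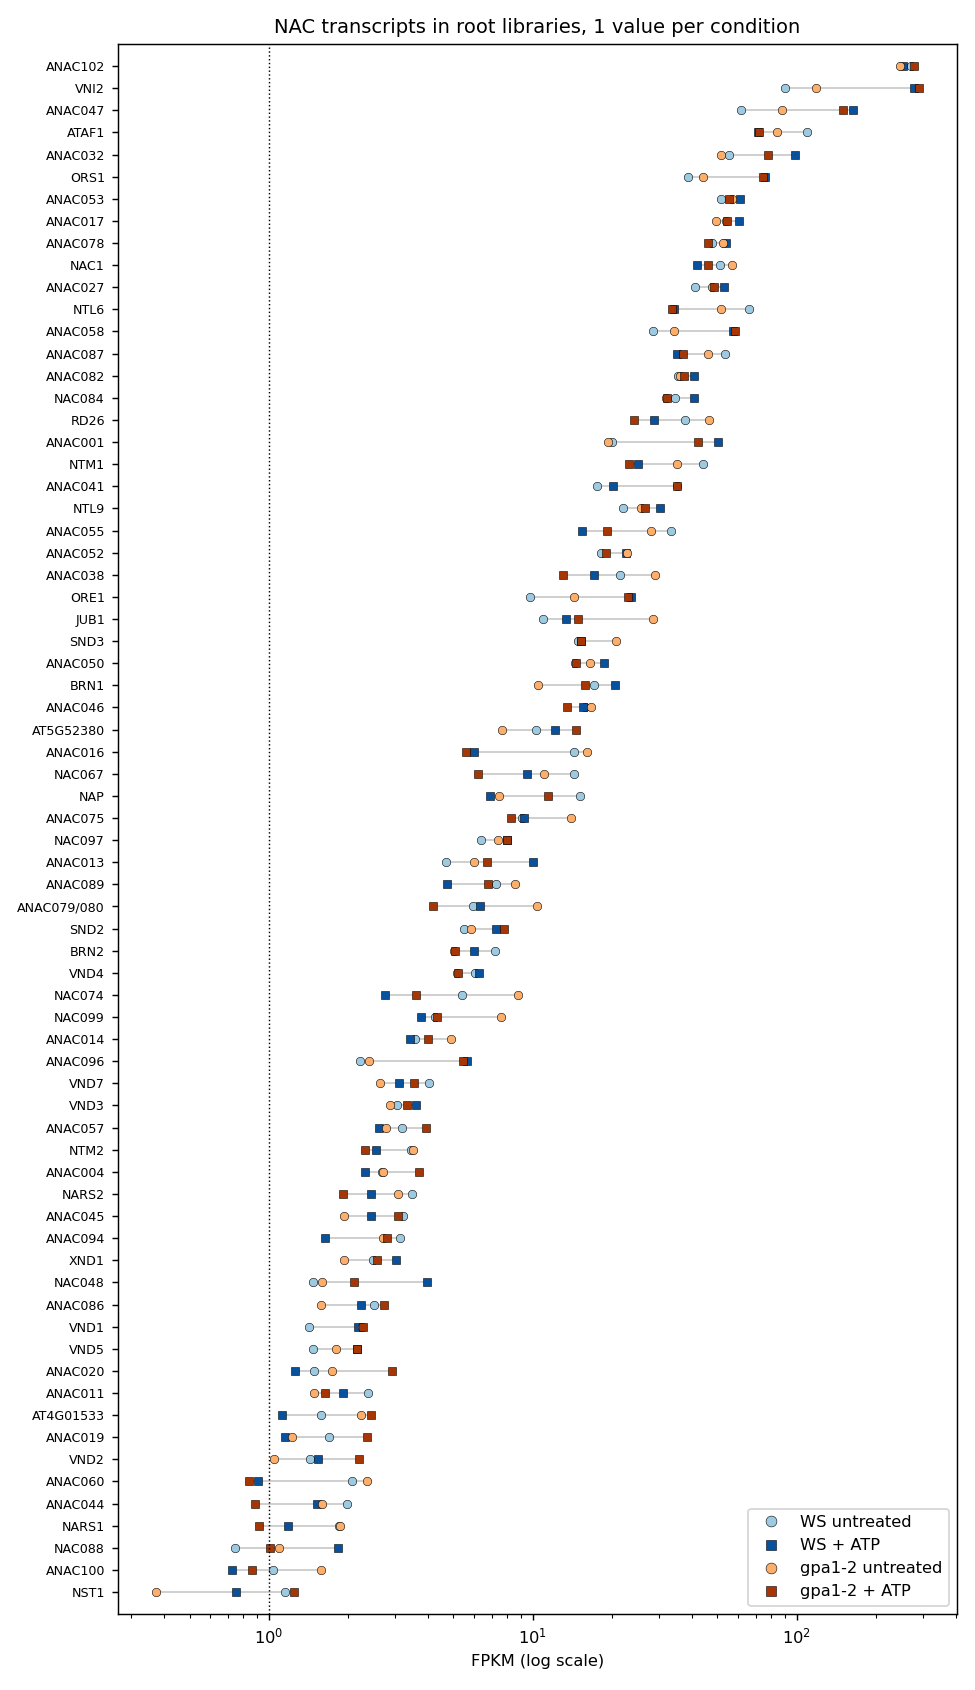
FPKM of the 70 NAC genes on a log axis, 1 row per gene in order of mean level, with circles for untreated and squares for ATP-treated roots, blue for WS and orange for gpa1-2, and 1 value per gene and condition. The dotted line marks 1 FPKM. Levels run from below 1 FPKM to 291 FPKM for VNI2 in ATP-treated gpa1-2, and for most genes the 4 points lie close together.

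The first question was which NAC transcripts differed after ATP in the wild type. In WS, 9 of 70 members changed by 1 or more (12.9%), against 8.02% of the 19901 genes tested. Over genes with at least 20 reads in the columns compared, the background was 6.34%, with the same 9 members. *VNI2*, *ANAC047*, *ANAC001*, *ORE1*, *ANAC096* and *NAC048* rose, 6 members against a background of 3.75%, and *ANAC016*, *ANAC055* and *NAP* fell, 3 members against a background of 4.28%. The share that fell was thus near the background, and the share that rose was 8.57%. The median response of the members was 0.00, as against -0.01 over all genes. Of the members, 67.1% lay within 0.5 of 0, and of all genes 74.6%.

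In *gpa1-2*, 6 of 70 members changed (8.57%), close to the 7.38% of all 19865 genes tested. With at least 20 reads the background was 5.92% and the 6 members were the same. *VNI2* and *ANAC001* rose (background 3.6%), and *ANAC016*, *ANAC038*, *NAC074* and *ANAC079/080* fell (background 3.78%). The median response was 0.02, and 0.03 over all genes. Within 0.5 of 0 lay 57.1% of the members and 73.7% of all genes, so a smaller share of the NAC genes than of all genes lay near 0. This difference was not tested. *VNI2*, *ANAC001* and *ANAC016* passed the threshold in WS and in *gpa1-2* with the same sign. All 6 members that rose in WS had a response above 0 in *gpa1-2*, from 0.25 to 1.29. Across the 70 members the responses in WS and *gpa1-2*, which share no column, had a Pearson correlation of 0.608 and a Spearman correlation of 0.547. Over all genes with at least 20 reads these were 0.653 and 0.539. The sign was the same for 67.1% of the members and for 67.3% of all genes with at least 20 reads. Members of a family are not independent replicates, and this is given as a description.

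**Figure D2:**
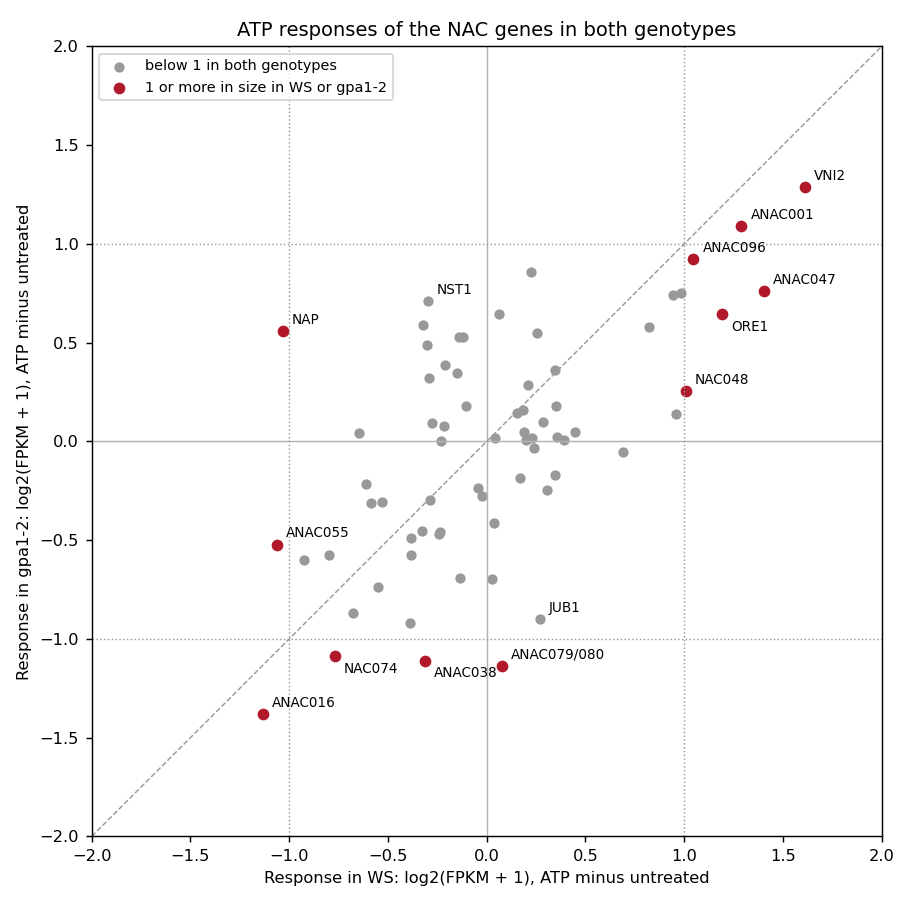
Response of each of the 70 NAC genes in WS (horizontal) and in gpa1-2 (vertical), both as log2(FPKM + 1), ATP-treated minus untreated; red points reached 1 in size in at least 1 genotype, dotted lines mark a size of 1 and the dashed line equal responses. VNI2 and ANAC001 lie at the upper right and ANAC016 at the lower left, and NAP lies apart at -1.03 in WS and 0.56 in gpa1-2.

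*VNI2* encodes a repressor that binds VND7, the regulator of vessel formation, and it is induced by abscisic acid and salt. In WS it was at 90.4 FPKM untreated and 279 FPKM after ATP. In *gpa1-2* it was at 119 FPKM untreated and 291 FPKM after ATP. Both treated values lay far above both untreated values. The response was 1.61 in WS, with an interval from 1.51 to 1.73 on 3737 reads, and 1.29 in *gpa1-2*, with an interval from 1.20 to 1.39. *VNI2* overlaps another annotated gene, and whether reads were assigned by strand is not given in the sources used here.

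*ANAC047* is known for upward leaf movement under waterlogging. In WS it had 61.3 FPKM before and 164 FPKM after ATP. The mutant had 88.2 FPKM before and 150.2 FPKM after ATP, so that both treated values exceeded both untreated ones. The response was 1.40 in WS (interval from 1.29 to 1.55) and 0.76 in *gpa1-2* (interval from 0.66 to 0.88). The smaller value in *gpa1-2* went with a higher untreated level there, 0.52 above WS, whereas the treated levels differed by -0.12. *ANAC046*, its neighbour on the chromosome and a regulator of chlorophyll breakdown and of root cap cell death, was at 15.7, 15.5, 16.5 and 13.5 FPKM, with responses of -0.02 in WS and -0.27 in *gpa1-2*.

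*ANAC001*, also called NTL10, belongs to the members with a predicted membrane anchor. It was at 19.99, 50.3, 19.2 and 42.0 FPKM. Both treated values were more than 40 FPKM and both untreated values near 20 FPKM. The response was 1.29 in WS (interval from 1.15 to 1.52) and 1.09 in *gpa1-2* (interval from 0.94 to 1.32).

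*ORE1* is a positive regulator of leaf senescence and age-dependent cell death and a target of the microRNA miR164. Its level was 9.74 FPKM in untreated and 23.6 FPKM in ATP-treated WS, and 14.4 and 23.0 FPKM in *gpa1-2*. The response was 1.19 in WS (interval from 0.94 to 1.61) and 0.64 in *gpa1-2* (interval from 0.39 to 0.97), where it did not reach the threshold. The treated levels differed by -0.03 between the genotypes, and the untreated level was 0.52 higher in *gpa1-2*. *ANAC096*, which acts in wound-induced vascular cambium and in dehydration responses, was at 2.20, 5.62, 2.38 and 5.41 FPKM, with responses of 1.05 in WS and 0.92 in *gpa1-2*. *NAC048* was at 1.46, 3.96, 1.59 and 2.09 FPKM on 16 to 49 reads. Its response of 1.01 in WS had an interval from 0.74 to 2.49 and that of 0.25 in *gpa1-2* an interval from -0.50 to 1.33.

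**Figure D3:**
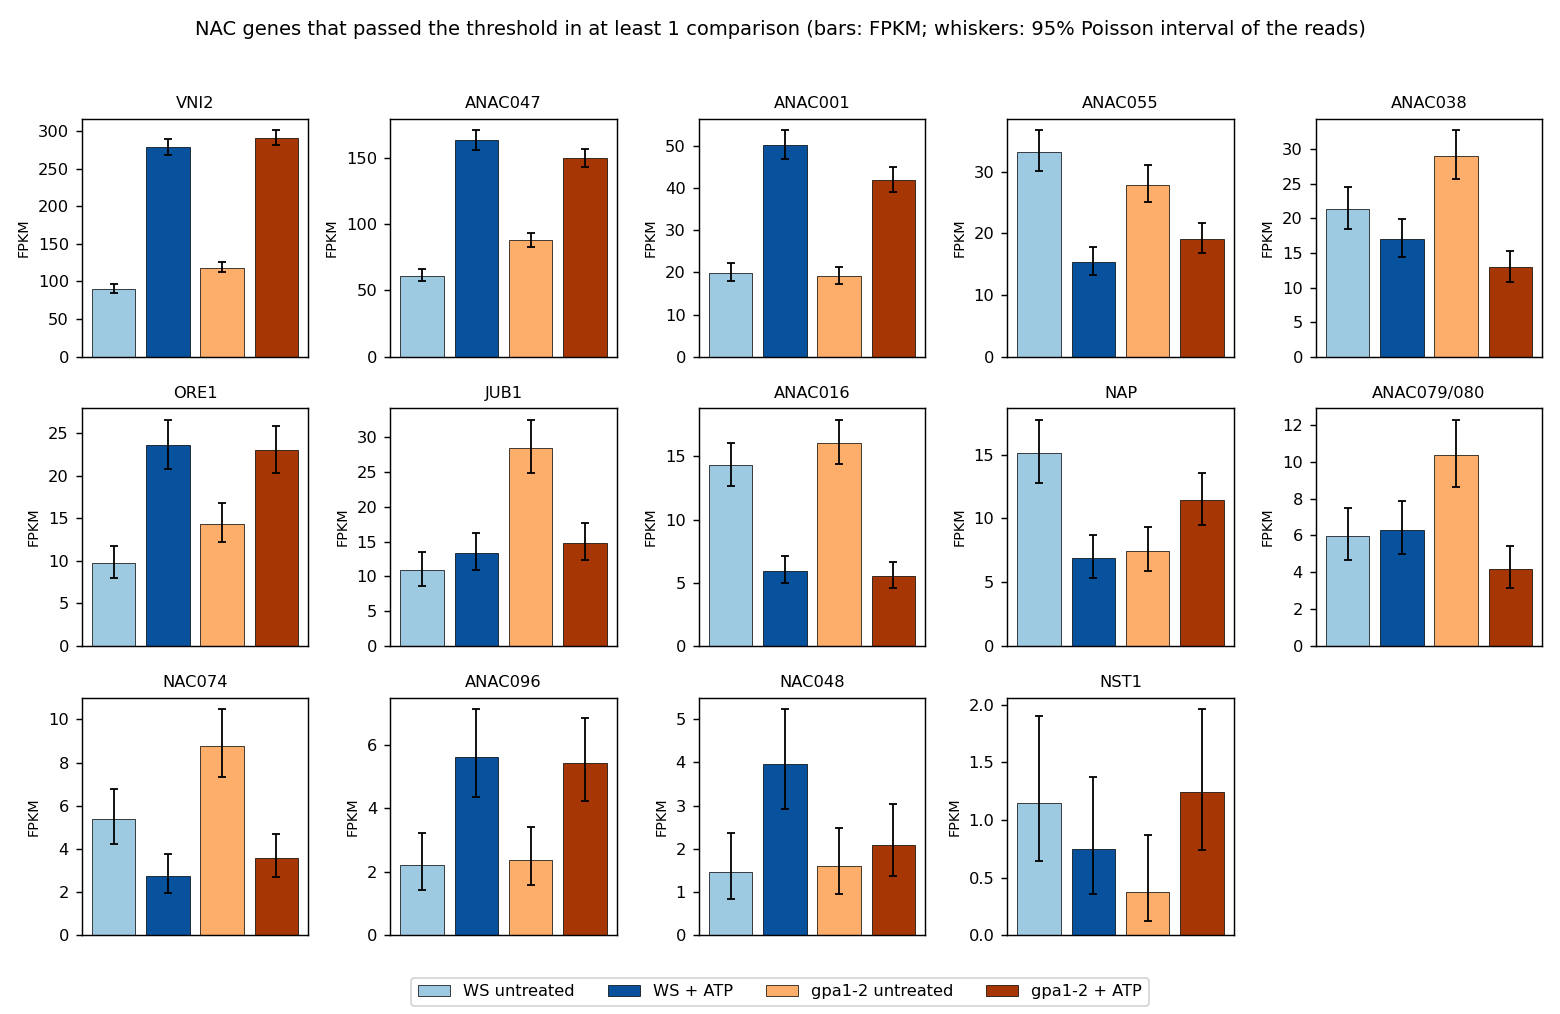
FPKM of the 14 NAC genes that reached 1 in size in at least 1 comparison, 1 panel per gene with its own axis from 0; bars are the 4 conditions in the order untreated WS, ATP-treated WS, untreated gpa1-2 and ATP-treated gpa1-2, and whiskers are exact 95% Poisson intervals of the reads, not replicate errors. VNI2 and ANAC001 are high in both treated columns, ANAC016 is low in both, and JUB1 stands out only in untreated gpa1-2, at 28.5 FPKM.

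Among the members that fell, *ANAC016* had the lowest responses in both genotypes. It encodes a membrane-tethered regulator of drought responses and leaf senescence. It was at 14.3 and 5.97 FPKM in untreated and ATP-treated WS and at 16.1 and 5.55 FPKM in *gpa1-2*. The response was -1.13 (interval from -1.58 to -0.95) in WS and -1.38 (interval from -1.84 to -1.23) in *gpa1-2*. *ANAC017*, its neighbour and the regulator of mitochondrial retrograde signalling, was at 54.0, 60.2, 49.3 and 54.5 FPKM, with responses of 0.15 in WS and 0.14 in *gpa1-2*. The pair thus differed by 1.29 in WS and by 1.52 in *gpa1-2*.

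*ANAC055*, a regulator of abscisic acid and jasmonate responses, was at 33.3, 15.4, 27.9 and 19.1 FPKM. Both treated values were lower than both untreated values. The response was -1.06 (interval from -1.37 to -0.86) in WS and -0.52 (interval from -0.79 to -0.31) in *gpa1-2*. *NAP*, a regulator of leaf senescence, had 15.1 FPKM in untreated and 6.88 FPKM in ATP-treated WS, but was at 7.43 and 11.4 FPKM in untreated and ATP-treated *gpa1-2*. The response was -1.03 (interval from -1.57 to -0.72) in WS and 0.56 (interval from 0.20 to 1.05) in *gpa1-2*. These values rest on 70 to 150 reads per column.

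*ANAC038*, *ANAC079/080* and *NAC074* passed the threshold downward in *gpa1-2* and not in WS. *ANAC038* was at 21.4, 17.0, 29.1 and 12.95 FPKM, with a response of -0.31 in WS and -1.11 (interval from -1.46 to -0.85) in *gpa1-2*. *ANAC079/080*, one of the miR164 targets, was at 5.95, 6.32, 10.3 and 4.17 FPKM, with a response of 0.08 (interval from -0.38 to 0.58) in WS and -1.14 (interval from -1.80 to -0.86) in *gpa1-2*. In both genes untreated *gpa1-2* held the highest and treated *gpa1-2* the lowest of the 4 values. *NAC074* was at 5.40, 2.76, 8.79 and 3.60 FPKM, with responses of -0.77 in WS and -1.09 in *gpa1-2*, and both treated values were lower than both untreated values.

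The second question was whether the genotypes differed. In untreated roots, 1 of 70 members differed by 1 or more between *gpa1-2* and WS, against 2.18% of the 19826 genes tested, or 0.631% of those with at least 20 reads. The member was *JUB1*, which delays senescence and raises stress tolerance. It was higher in the mutant (background 1.13%) and 0 members were lower (background 1.05%). *JUB1* was at 28.5 FPKM in untreated *gpa1-2*, against 10.9 FPKM in untreated WS, a difference of 1.31 with an interval from 1.01 to 1.77 on 82 and 221 reads. After ATP the 2 levels were 13.4 FPKM in WS and 14.8 FPKM in *gpa1-2*. *JUB1* overlaps another annotated gene. After ATP, 0 of the 68 members tested reached 1 between the genotypes, against 2.67% of the 19774 genes tested, 1.29% of them higher and 1.38% lower in *gpa1-2*, and 1.02% of those with at least 20 reads. The highest values there were 0.80 for *ANAC020* and 0.78 for *ANAC041*, and the lowest was -0.68 for *NAC048*.

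*ANAC041* kept a difference between the genotypes in both conditions. It was at 17.4 and 20.2 FPKM in untreated and ATP-treated WS and at 35.1 and 35.3 FPKM in *gpa1-2*. Both *gpa1-2* values lay above both WS values. The difference was 0.97 (interval from 0.74 to 1.29) untreated and 0.78 (interval from 0.55 to 1.07) after ATP, below the threshold, and the responses to ATP were 0.20 in WS and 0.01 in *gpa1-2*.

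The response in WS minus that in *gpa1-2* reached 1 in size for 4 of 70 members (5.71%), against 5.83% of the 20350 genes tested, so their share was that of the background. With at least 20 reads the background was 3.15% and the 4 members were the same. The response was higher in WS for 2 of them (background 3.03%) and lower for 2 (background 2.8%). The difference was 1.21 for *ANAC079/080* (interval from 0.74 to 2.10) and 1.17 for *JUB1* (interval from 0.69 to 1.78), and -1.59 for *NAP* (interval from -2.37 to -1.15) and -1.01 for *NST1* (interval from -4.52 to -0.31). *NST1*, a master regulator of secondary walls in fibres, was at 1.15, 0.748, 0.372 and 1.24 FPKM on 5 to 18 reads. *JUB1* had responses of 0.27 in WS and -0.90 in *gpa1-2*. For *JUB1*, *ANAC079/080* and *NAP* the untreated columns stood further apart than the treated ones, by 1.31, 0.71 and -0.94 untreated and by 0.14, -0.50 and 0.66 after ATP. Over the 70 members the median difference of the responses was 0.19, and 45 members were above 0 (64.3%), as against -0.03 and 46.3% over all genes.

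The role lists were then read one by one. Over all genes tested, 8.02% changed after ATP in WS and 7.38% in *gpa1-2*, which is the background for the counts of each list. No list count was tested. Of the 10 members of the stress and abscisic acid list, 1 rose and 2 fell in WS, and none of the 10 reached 1 in *gpa1-2*. *ANAC102* was at 271, 252, 246 and 279 FPKM, a response of -0.10 in WS and 0.18 in *gpa1-2*. *ATAF1*, a drought and abscisic acid regulator, was at 109, 71.1, 83.8 and 72.0 FPKM, with responses of -0.61 in WS and -0.22 in *gpa1-2*. *ANAC032*, which acts in stress and senescence, was at 55.4, 98.6, 51.8 and 78.0 FPKM, with responses of 0.82 in WS and 0.58 in *gpa1-2*. *RD26*, a dehydration-induced activator, was at 37.8, 28.7, 46.6 and 24.2 FPKM, with responses of -0.39 in WS and -0.92 in *gpa1-2*. Of the 10 members, 2 were above 0 in WS, with a median of -0.38, and 5 in *gpa1-2*, with a median of -0.02, while 49.1% and 52.9% of all genes were above 0. These shares were not tested. *NARS2*, *ANAC019* and *NARS1* were low. *NARS2*, which acts in the seed coat together with *NARS1*, was at 3.47, 2.43, 3.07 and 1.899 FPKM. *ANAC019*, the close relative of *ANAC055*, was at 1.68, 1.15, 1.22 and 2.34 FPKM. *NARS1* was at 1.84, 1.18, 1.85 and 0.915 FPKM. All 3 stayed below 1 in response. *ANAC025*, the other gene of the list found by its description, stayed below 1 FPKM.

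In the senescence and cell death list, *ORE1* was the only one of 5 members to change after ATP in WS, and none did in *gpa1-2*. *ORS1*, a relative of *ORE1* that promotes senescence, was at 38.8, 75.6, 44.0 and 74.3 FPKM. Its responses of 0.94 in WS and 0.74 in *gpa1-2* lay just below the threshold, and both treated values were far above both untreated ones. *ANAC087*, which acts with *ANAC046* in root cap cell death, was at 53.3, 35.1, 46.1 and 37.0 FPKM, with responses of -0.59 in WS and -0.31 in *gpa1-2*. *ANAC036*, *ANAC061* and *ANAC090* were below 1 FPKM in each column.

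The 13 membrane-tethered members held 1 that rose and 1 that fell in each genotype, *ANAC001* and *ANAC016*. With *TIP* and *NTL8*, listed genes that the descriptions missed, 2 of 15 fell in each genotype, *ANAC016* and *TIP*. *NTL6*, which acts in cold and defence responses, was at 66.1, 34.3, 51.6 and 33.7 FPKM, with responses of -0.93 in WS and -0.60 in *gpa1-2*. *NTM1*, a regulator of cell division, was at 44.2, 25.01, 35.1 and 23.2 FPKM, with responses of -0.80 in WS and -0.58 in *gpa1-2*. Both genes were lower in both treated columns than in either untreated column, without reaching 1. *NTM2*, the neighbour of *NTM1*, was at 3.45, 2.55, 3.52 and 2.30 FPKM. *ANAC060*, which lowers abscisic acid signalling in sugar responses, was at 2.05, 0.910, 2.35 and 0.839 FPKM. *NTM2* and *ANAC060* were also below their untreated levels after ATP, and the responses of *ANAC060* were -0.68 in WS and -0.87 in *gpa1-2*. *ANAC089*, a regulator of cell death in endoplasmic reticulum stress, was at 7.24, 4.70, 8.56 and 6.74 FPKM.

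*ANAC013*, which with *ANAC017* relays mitochondrial stress to the nucleus, was at 4.67, 10.01, 6.01 and 6.72 FPKM, a response of 0.96 (interval from 0.72 to 1.47) in WS and 0.14 (interval from -0.20 to 0.53) in *gpa1-2*. *NTL9*, a calmodulin-binding member, was at 22.0, 30.4, 25.6 and 26.5 FPKM. *ANAC053*, which acts in drought and with *ANAC078* in proteasome stress, was at 51.4, 61.0, 56.9 and 55.5 FPKM. These 3 were highest in ATP-treated WS, as were *ANAC001*, *ANAC017* and *ANAC078* of the same list. *ANAC078* was at 47.8, 53.9, 52.4 and 46.0 FPKM, and *ANAC014* was at 3.56, 3.42, 4.89 and 4.00 FPKM. *ANAC103*, a gene of the unfolded protein response, reached 0.970 FPKM and stood just outside the limit of 1 FPKM.

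Of the 12 members of the xylem and secondary wall list, *VNI2* was the only one to change after ATP. The VND genes, which switch on vessel formation, were low. *VND1* was at 1.41, 2.17, 2.25 and 2.27 FPKM, *VND2* at 1.43, 1.54, 1.04 and 2.19 FPKM, and *VND3* at 3.06, 3.62, 2.88 and 3.34 FPKM. *VND4* was at 6.02, 6.24, 5.16 and 5.22 FPKM, *VND5* at 1.47, 2.15, 1.79 and 2.15 FPKM, and *VND7* at 4.03, 3.11, 2.64 and 3.54 FPKM. All VND members thus stayed between 1.04 and 6.24 FPKM, and the 0.64 of *VND2* in *gpa1-2*, on few reads, was their largest response. *XND1*, which blocks vessel differentiation, was at 2.49, 3.03, 1.93 and 2.57 FPKM.

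*SND2* and *SND3* are regulators of secondary wall formation. *SND2* was at 5.50, 7.26, 5.83 and 7.76 FPKM, with responses of 0.35 in WS and 0.36 in *gpa1-2*. *SND3* was at 14.9, 15.2, 20.7 and 15.3 FPKM, with responses of 0.04 in WS and -0.41 in *gpa1-2*. *ANAC075*, an upstream regulator of *VND7*, was at 9.09, 9.27, 14.0 and 8.24 FPKM, with responses of 0.03 in WS and -0.70 in *gpa1-2*. In *SND3* and *ANAC075* the value in untreated *gpa1-2* stood above the other 3. *VND6*, *SND1* and *NST2* stayed below 1 FPKM, the highest value being 0.9402 FPKM for *VND6*.

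**Figure D4:**
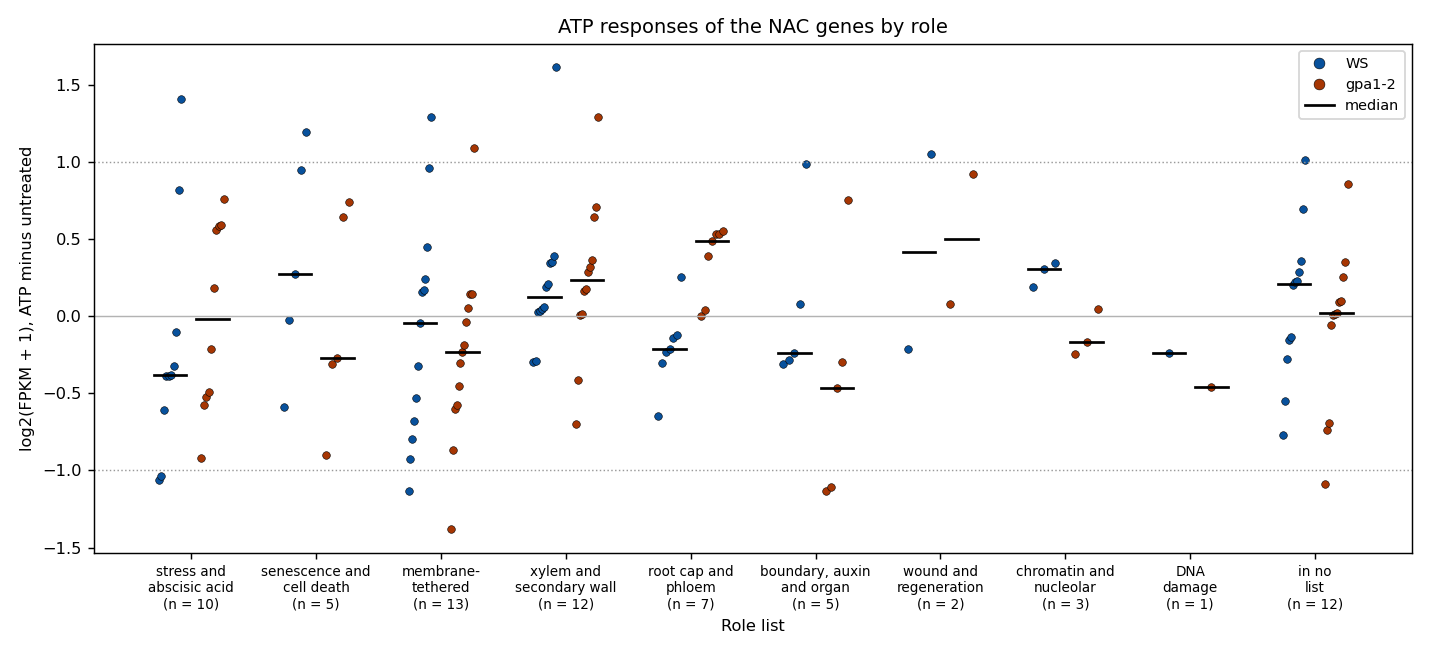
Responses of the 70 NAC genes by role list, as log2(FPKM + 1), ATP-treated minus untreated, with blue points for WS, brown points for gpa1-2, a black line at each median and dotted lines at a size of 1. In the root cap and phloem list all 7 points of gpa1-2 lie at or above 0 and 6 of 7 of WS below 0; no point of that list reaches 1.

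The 7 members of the root cap and phloem list had responses of 0.00 to 0.55 in *gpa1-2* and of -0.65 to 0.25 in WS, and none reached 1. The response in WS was below that in *gpa1-2* for all 7, with a median difference of -0.65, but the interval left out 0 for 1 of the 7. Of all genes, 46.3% had a difference above 0. With *SMB* and *FEZ*, the listed genes at 1 FPKM or more that the descriptions missed, 1 of 9 was above 0, *FEZ* at 0.16, and *SMB* was at -0.11. *BRN1* and *BRN2* direct the maturation and shedding of root cap cells. *BRN1* was at 17.1, 20.53, 10.5 and 15.8 FPKM, with responses of 0.25 in WS and 0.55 in *gpa1-2*. *BRN2* was at 7.20, 5.99, 5.03 and 5.05 FPKM, with responses of -0.23 in WS and 0.00 in *gpa1-2*. *ANAC045* and *ANAC086* drive the breakdown of the nucleus in sieve elements. *ANAC045* was at 3.22, 2.42, 1.92 and 3.09 FPKM, with responses of -0.30 in WS and 0.49 in *gpa1-2*. *ANAC086* was at 2.51, 2.23, 1.57 and 2.72 FPKM, with responses of -0.12 in WS and 0.53 in *gpa1-2*. *ANAC045* and *ANAC086* were lowest in untreated *gpa1-2*. *ANAC020* was at 1.48, 1.25, 1.73 and 2.94 FPKM, *ANAC057* at 3.19, 2.62, 2.77 and 3.93 FPKM, and *ANAC094* at 3.12, 1.63, 2.70 and 2.81 FPKM. The 4 root cap markers, which include *BRN1* and *BRN2*, summed to 28.2 and 31.0 FPKM in WS and to 19.5 and 25.6 FPKM in *gpa1-2*. The part of cell composition in these values was not tested.

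In the boundary, auxin and organ list, *ANAC038* and *ANAC079/080* fell in *gpa1-2* and none of 5 members changed in WS. *NAC1*, which relays auxin signals in lateral root formation, was at 51.1, 41.8, 56.7 and 45.9 FPKM, with responses of -0.29 in WS and -0.30 in *gpa1-2*. *ANAC058* was at 28.4, 57.1, 34.3 and 58.4 FPKM, and its response in WS of 0.98 lay just below the threshold while that in *gpa1-2* was 0.75. *ANAC100* was at 1.04, 0.721, 1.58 and 0.866 FPKM on 10 to 22 reads. All 5 members were higher in untreated *gpa1-2* than in untreated WS, by 0.15 to 0.71, with intervals above 0 for 3 of them, and none reached 1. In that comparison 58.6% of all members and 46.1% of all genes were above 0. Of the miR164 targets, *NAC1*, *ORE1*, *ANAC079/080* and *ANAC100* were members, and 3 of them belong to the same 5 genes. Each was above 0 in that comparison, with a median of 0.43.

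The chromatin and nucleolar list holds *ANAC050* and *ANAC052*, which recruit a histone demethylase, and *ANAC082*, which mediates responses to ribosomal stress. *ANAC050* was at 14.4, 18.6, 16.5 and 14.5 FPKM, *ANAC052* at 18.05, 22.5, 22.7 and 18.99 FPKM, and *ANAC082* at 35.5, 40.6, 36.1 and 37.3 FPKM. All 3 had responses above 0 in WS, of 0.19 to 0.35, while in *gpa1-2* they were -0.17, -0.25 and 0.05. None reached 1. *ANAC050* and *ANAC052* are neighbours with similar proteins, and how shared reads were assigned is not given in the sources used here. In the other lists, *ANAC011*, a wound-response relative of *ANAC096*, was at 2.37, 1.900, 1.49 and 1.63 FPKM. *ANAC044*, which acts in arrest of the cell cycle after DNA damage, was at 1.97, 1.52, 1.59 and 0.884 FPKM. The relatives *ANAC071* and *ANAC085* stayed below 1 FPKM.

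The remaining 12 members were in no role list. *ANAC027* was at 41.0, 52.8, 47.6 and 48.4 FPKM, *NAC084* at 34.6, 40.7, 31.9 and 32.2 FPKM, and *NAC097* at 6.35, 7.95, 7.39 and 7.99 FPKM. These 3 had responses of at most 0.36 in size. *NAC067* was at 14.3, 9.48, 11.1 and 6.22 FPKM, with responses of -0.55 in WS and -0.74 in *gpa1-2*. *NAC099* was at 4.25, 3.77, 7.60 and 4.33 FPKM, highest in untreated *gpa1-2*. *ANAC004* was at 2.68, 2.31, 2.70 and 3.71 FPKM. *NAC088* was at 0.746, 1.82, 1.09 and 1.01 FPKM, on 2 to 5 reads per column, and was the only member with fewer than 20 reads over both columns of an ATP response.

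The rule also took up 2 genes whose identity is open. *AT5G52380* is described as vascular-related NAC-domain 6, but its best curated protein match is an uncharacterized protein, and another locus is listed as *VND6*. It was at 10.3, 12.2, 7.63 and 14.6 FPKM, with responses of 0.22 in WS and 0.86 in *gpa1-2*. *AT4G01533*, at 1.57, 1.12, 2.23 and 2.44 FPKM, is annotated as a non-coding RNA in the gene table used. In all, 13 members overlap another annotated gene, among them *ATAF1*, *ANAC102*, *NAC1*, *ANAC013* and *ANAC078*, and their values may hold reads of the partner. Of the 28 genes below 1 FPKM, 9 were at 0 in each column and 19 between 0 and 1 FPKM. The members nearest above the limit were *NST1*, *ANAC100* and *NAC088*, with highest values of 1.24, 1.58 and 1.82 FPKM, and those nearest below it were *ANAC103*, *ANAC028* and *VND6*, with 0.970, 0.947 and 0.9402 FPKM.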

How the data were processed

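The authors deposited 2 tables, one for WS and one for *gpa1-2*, each with a scaled count signal and an FPKM value per gene for untreated and ATP-treated roots. The methods describe Affymetrix arrays only. How these values were made, with which aligner, genome build and strand setting, is not given in the sources used here. The tables also hold the authors' fold changes, p-values and FDR, which were not used. Columns were read as pooled values of a condition. The number of unused columns with values of single samples was 0.

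From the deposited FPKM, differences of log2(FPKM + 1) were taken over genes that reached 1 FPKM in one of the conditions compared, with a change counted from 1 upward. Whole reads were worked out from the step size of the scaled signal, and 98.9% to 99.3% of the low values were whole within 0.1 read. Exact 95% intervals were conditional on the reads of a gene. Because there is 1 value per condition, the tests planned for replicates were not run. The alternatives were pseudocounts of 0.1 and 5, other filters, other scalings and thresholds, and a minimum of 20 reads. The members and lists were chosen with earlier results of these data known. The naming rule was to name every member with its 4 values, with intervals for those that changed, the genes of the lists that changed, and *AOX1A*, *BFN1*, *MYB46*, *CYCB1;1* and *GPA1*. A gene of the target lists is not reported here. Some further members got intervals beside them, chosen after their values were seen. Names and overlaps came from RefSeq, which held all 70 members. No sequences were used here.

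The steps were tested on simulated data. For ATP in WS, 33544 genes were simulated and 200 changed 4-fold. The threshold recovered 98.5% of these and was passed by 191 genes that had not changed, or 22 with at least 20 reads. The changed genes were drawn from those with at least 20 reads in untreated WS, and a 4-fold change lies well above the threshold. Reads varied by counting error alone. The simulation therefore says nothing on false calls from the spread between plants or libraries. The software was Python 3.11.15 (scipy 1.17.1, numpy 2.4.6, matplotlib 3.10.9, pandas 2.3.3).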

Additional observations from a re-analysis of the deposited data

Results flagged for a closer look

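For 4 members the counting intervals of the ATP response lay on opposite sides of 0 in the 2 genotypes, and whether the responses differ between WS and *gpa1-2* plants was not tested, since each condition has 1 value. The difference of the responses, WS minus *gpa1-2*, was -1.59 for *NAP*, 0.55 for *ANAC052*, 0.36 for *ANAC078* and -0.28 for *ANAC102*. Only that of *NAP* reached 1 in size. The share of all genes with such opposite intervals was not worked out, and counting intervals are narrow where reads are many.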

How the results depend on the processing

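No result reversed. With a pseudocount of 5 in place of 1, ATP raised 3 and lowered 0 members in WS and raised 1 and lowered 0 in *gpa1-2*, and 1 member differed in its response. With 0.1, 9 members rose and 4 fell in WS, and 5 rose and 5 fell in *gpa1-2*. At that setting 8 differed in response, and 4 differed between the genotypes untreated and 2 after ATP. A threshold of 2 left 0 members raised or lowered in either genotype, 0 that differed in response and 0 untreated. A 1.5-fold threshold gave 11 raised and 10 lowered in WS, 11 and 11 in *gpa1-2*, 18 that differed in response, and 8 and 6 between the genotypes untreated and after ATP. No share over all genes is given here for the other pseudocounts, thresholds and scalings, so their counts have no background beside them. Upper-quartile scaling gave 2 members untreated. A minimum of 20 reads, or an interval that excludes no change, gave the same member calls. Of the responses of single members, 6 moved most with a pseudocount of 5: *ANAC016* to -0.81 in WS and -0.998 in *gpa1-2*, *NAC048* to 0.47, *ANAC096* to 0.56, *NAC074* to -0.68 and *ANAC079/080* to -0.74. With that pseudocount *NAP*, *ANAC055* and *ORE1* also fell below 1 in size in WS, at -0.76, -0.91 and 0.95. So did *ANAC001* at 0.96 and *ANAC038* at -0.93 in *gpa1-2*. Median centring put *NAC048* at 0.995 in WS, which left 5 members raised there. No paired analysis was possible because the columns carry no values of single replicates, and leaving out a replicate could not be run for the same reason. The limits are 1 value per condition, few reads for members near 1 FPKM, and columns named by a number.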

Other observations

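Some NAC family genes lay outside the members because their deposited descriptions lacked the word. *ATAF2*, a stress and auxin regulator, was at 318, 276, 298 and 323 FPKM, above *ANAC102* in each condition. *TIP*, a membrane-tethered member that binds a viral coat protein, was at 86.7, 31.7, 63.4 and 30.3 FPKM, and it fell in both genotypes, by 1.42 in WS and by 1.04 in *gpa1-2* on the log2(FPKM + 1) scale. *SOG1*, the central regulator of the DNA damage response, was at 16.4, 10.8, 15.8 and 11.7 FPKM. *SMB*, a root cap regulator, was at 3.32, 3.27, 3.16 and 3.44 FPKM, and *FEZ*, which promotes root cap stem cell divisions, at 0.590, 1.23, 0.816 and 1.29 FPKM. *NTL8* was at 1.12, 0.766, 1.09 and 1.41 FPKM. *CUC3* was at 0 in each column, and *CUC1* and *CUC2* stayed below 1 FPKM.

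Genes known as targets or partners of NAC proteins were counted list by list. Over all genes tested, 8.02% changed after ATP in WS and 7.38% in *gpa1-2*. No list count here was tested. Of the 8 loci taken as xylem targets of VND and NST proteins, 1 is another gene, TPP2, in the gene table, and of the 7 left none reached 1 after ATP in either genotype, and *MYB46*, a wall regulator, was at 6.67, 6.41, 7.34 and 7.70 FPKM. Of the 7 mitochondrial stress targets of *ANAC013* and *ANAC017*, 1 rose in WS, *UGT74E2*, an auxin glucosyltransferase gene, at 21.7, 56.3, 22.8 and 40.0 FPKM. *CRF6*, a cytokinin response factor gene, fell in *gpa1-2* and was at 6.64, 4.00, 5.44 and 1.78 FPKM, while *AOX1A*, the alternative oxidase gene, was at 82.3, 88.3, 88.6 and 92.8 FPKM. In the list of stress NAC partners and targets, 2 of the 5 genes tested fell in WS and the same 2 in *gpa1-2*. *MYC2*, the jasmonate regulator, was at 274, 74.4, 217 and 80.5 FPKM. *DREB2A*, a dehydration regulator, was at 71.6, 33.0, 58.1 and 28.5 FPKM. Of the 5 root cap and cell death targets, 1 fell in WS and 0 changed in *gpa1-2*. The 1 was *CEL5*, a cellulase gene of the root cap, at 23.9, 10.5, 20.8 and 11.96 FPKM. *BFN1*, a nuclease gene of cell death, was at 30.7, 24.9, 40.9 and 34.2 FPKM. Of the 6 DNA damage targets of *SOG1*, 1 fell after ATP in WS (background 4.28%) and 1 in *gpa1-2* (background 3.78%), and 0 rose in either. Set against WS, the mutant was higher by 1 or more for 1 of the 6 before treatment (background 1.13%). After ATP it was higher for 2 of the 6 (background 1.29%). The response in WS was lower than that in the mutant by 1 or more for 1 of the 6 (background 2.8%). These counts were not tested. Among these targets *CYCB1;1* was at 6.83, 5.72, 6.50 and 7.42 FPKM and did not reach 1.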
